A study of Mus musculus with 6 samples.

Results

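The genes described here are 39 that encode the protein-folding machinery of the cytosol and the mitochondrion: heat shock proteins of the HSP70, HSP110, HSP90 and HSP40 families with their cochaperones, the chaperonin CCT, prefoldin, and the mitochondrial chaperones. The rule that chose them is a list of gene names and uses no measured value, although the list was drawn up with earlier results of these data known. Of the 39, 38 were matched to a row among the 42256 genes of the count table, and 37 passed the filter on low counts that left 12862 genes for testing. Hspa14 (ENSMUSG00000109865 in the annotation used) has no level given here and enters only the counts of promoter motifs, and Hspb1 failed the filter. For the comparison, 7 genes were classed as inducible, 26 as constitutive, 5 as mitochondrial and 1, Hsf1, as their regulator. Inducible means known from textbooks to be strongly induced by heat shock through the transcription factor HSF1. Whether genes of any class respond to heat was not measured here.

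RNA was sequenced from macrophages grown from the bone marrow of adult male mice on a mixed 129S1/Sv x C57BL/6 background. The genotypes were CDH11-/- (knockout, KO, 3 libraries) and CDH11+/+ (wild type, WT, 3 libraries), cadherin-11 being a cell adhesion protein that fibroblasts and osteoblasts make. All cultures grew for 7 days with 20% L929-conditioned medium, a source of the macrophage growth factor CSF1, and 10% FBS, and were otherwise untreated. The series is framed around macrophage migration and T cell activation in atherosclerosis, its design text mentions 4 KO animals, and the sample labels tie no library to an animal, so p-values measure only the spread between these libraries, which may be technical.

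Chaperones hold unfolded proteins and let them fold. HSP70 proteins bind short unfolded stretches in a cycle driven by ATP, in which HSP40 (J-domain) proteins start ATP hydrolysis and exchange factors such as the HSP110 proteins and BAG proteins release the client. HSP90 acts later, on kinases and receptors brought to it by cochaperones, while prefoldin hands newly made actin and tubulin to the CCT ring. HSF1 is the transcription factor that raises the inducible members after heat or other damage to proteins.

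Libraries held 28193880 to 30122204 counts in KO and 27170943 to 37113689 in WT, with 2.13 to 2.43% mitochondrial-genome counts in KO and 2.09 to 2.34% in WT. Cdh11 had 4 to 6 counts in the KO libraries and 6 to 11 in the WT libraries, too few to check the genotype labels. All 9 macrophage markers were measured, with summed levels of 19958 to 25614 CPM (counts relative to the TMM-scaled size of each library) in KO and 31403 to 34019 CPM in WT. Among them Csf1r, Lyz2 and Cd14 fell (1 of them without WT 1) and Cd68 rose, a call lost without KO 2, KO 3, WT 1 or WT 2. None of 7 fibroblast markers passed the filter on low counts, their summed level was 0.275 to 0.465 CPM in KO and 0.113 to 0.276 CPM in WT, and Dcn and Lum were at 0 in all 6 libraries.

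Before the values, the stretches of DNA in front of Hspa1a and Hspa1b, the inducible pair with the largest fold changes, and between the mitochondrial partners Hspd1 and Hspe1 are shown, because heat shock factors bind repeats of GAA and its reverse complement TTC. Hspd1, the mitochondrial HSP60 chaperonin, and Hspe1, its HSP10 lid, are transcribed away from each other on chromosome 1. The interval of 215 bases between their RefSeq starts at 55087932 (minus strand) and 55088148 (plus strand) is GRCm38.p6 chr1:55087933-55088147, shown on the plus strand with the overlapping matches to GAANNTTCNNGAA and its reverse complement TTCNNGAANNTTC in capitals.
Hspd1-Hspe1: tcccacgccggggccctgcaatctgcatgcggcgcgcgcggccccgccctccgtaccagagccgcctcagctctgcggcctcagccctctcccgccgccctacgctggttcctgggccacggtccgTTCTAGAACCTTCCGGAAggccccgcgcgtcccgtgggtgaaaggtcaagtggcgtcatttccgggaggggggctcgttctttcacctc
The 200 bases before the starts of Hspa1a (chr17:34972157-34972356, minus strand) and Hspa1b (chr17:34959239-34959438, minus strand) are shown 5′ to 3′ with the match to GAANNTTC in capitals, which begins 104 bases before the start in both.
Hspa1a: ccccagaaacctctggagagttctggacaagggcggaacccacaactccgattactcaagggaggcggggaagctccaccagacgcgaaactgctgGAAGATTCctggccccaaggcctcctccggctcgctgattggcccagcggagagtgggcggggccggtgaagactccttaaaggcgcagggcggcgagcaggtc
Hspa1b: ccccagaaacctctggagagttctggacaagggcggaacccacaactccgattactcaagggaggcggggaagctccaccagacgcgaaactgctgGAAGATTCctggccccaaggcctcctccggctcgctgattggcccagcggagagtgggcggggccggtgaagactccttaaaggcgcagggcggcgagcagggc
These Hspa1a and Hspa1b windows differed at 1 of 200 bases. For Hspd1, a further start at 55088243 lies beyond that of Hspe1, so the interval between the pair holds for the start used here and not for that one.

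The motifs were counted from 250 bases before to 50 bases after the start in the RefSeq promoters of GRCm38.p6, on both strands, with overlapping matches allowed. Promoters were matched for 31 members and not for Hspa8, Hsp90aa1, Hsp90ab1, Hsf1, Dnajc2, Cct4, Pfdn1 and Hspa9. The longer motif, GAANNTTCNNGAA or TTCNNGAANNTTC, was present for 4 of the 31 (Hspd1, Hspe1, Hsph1 and Dnajb6), against 179 of the 27025 genes with a full window in these RefSeq promoters (0.662%). Hspd1 and Hspe1 hold the same stretch of DNA, read on opposite strands, so it is counted for both genes. The shorter one, GAANNTTC or TTCNNGAA, which lies within the longer one, was present for 14 of 31 members (45.2%), against 4587 of 27025 genes (17.0%). By class, it was found for 5 of 6 inducible, 7 of 21 constitutive and 2 of 4 mitochondrial promoters, the mitochondrial ones being those of Hspd1 and Hspe1. A match is a string of letters and not a measured binding site.

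KO macrophages had more RNA of most of these chaperones. Here rose and fell refer to genes with a Benjamini-Hochberg adjusted p under 0.05 in edgeR's quasi-likelihood test over all 12862 genes, and fold changes are KO over WT on the log2 scale with their SE. Of the 37 members tested, 27 rose (73.0%), 0 fell and 10 did not pass. Over all genes tested 35.2% passed, 18.5% as higher and 16.8% as lower in KO. The median fold change of the members was 0.40 and that of all genes 0.00. The 37 ran from -0.18 for Hspa8 to 1.13 for Hspa1a and Hspa1b. For 33 members the ranges of CPM in KO and WT were separate (89.2%), 31 of them higher and 2 lower in KO, where 53.4% of all genes had separate ranges, 27.0% as higher and 26.4% as lower in KO.

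The 27 members that rose lay in nearly the same order over the KO libraries. KO 1 was the KO library nearest to WT in 26 of them, KO 2 was the highest in 25, and 24 ran in the order KO 1, KO 3, KO 2. Summed over all 38 matched members, the level was 6069, 6982 and 6480.2 CPM in KO 1, KO 2 and KO 3, against 5421, 5324 and 5303 CPM in WT 1, WT 2 and WT 3. Without KO 2, 20 members rose, without KO 3 19, without WT 1 21, without WT 2 20 and without WT 3 21, and without KO 1 the count was again 27. In these cultured populations, a change in the share of cells that make a transcript and a change in RNA per cell cannot be told apart.

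**Figure D1:**
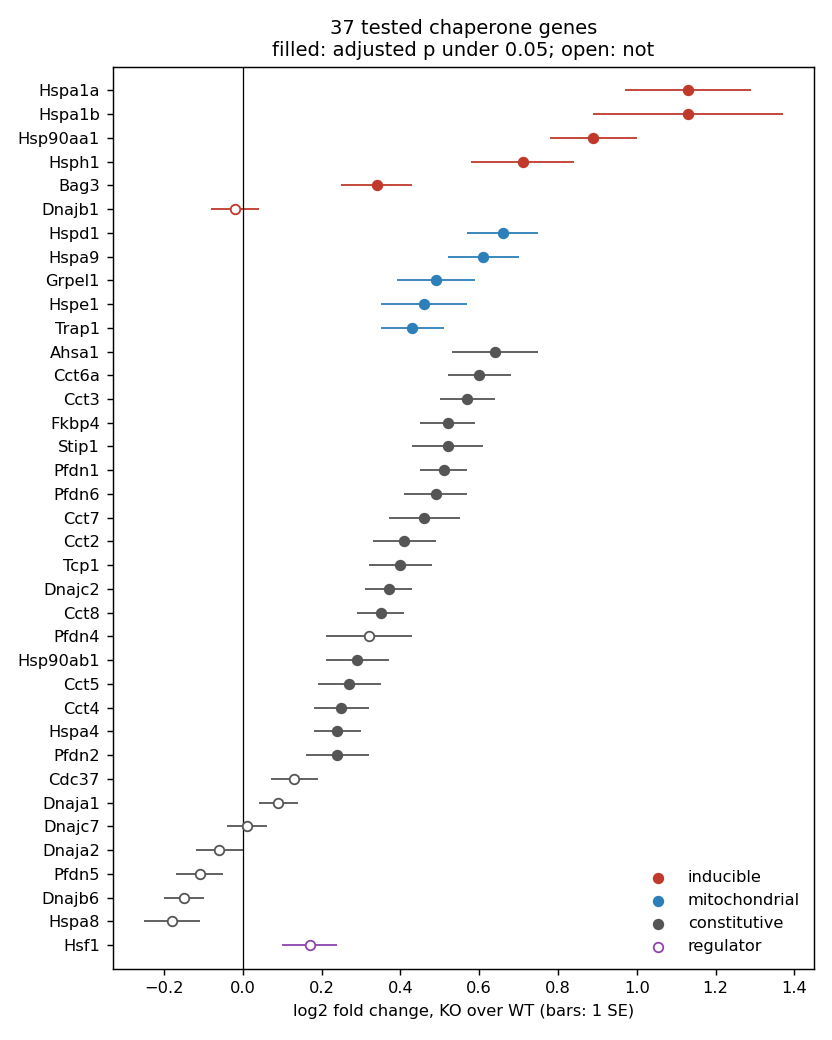
Log2 fold change of KO over WT for the 37 chaperone genes tested, by class (colours), with bars of 1 SE; filled points passed an adjusted p of 0.05 in edgeR's quasi-likelihood test and open points did not. The inducible genes Hspa1a and Hspa1b lie farthest right at 1.13, and 10 points are open, 5 of them HSP40 genes.

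**Figure D2:**
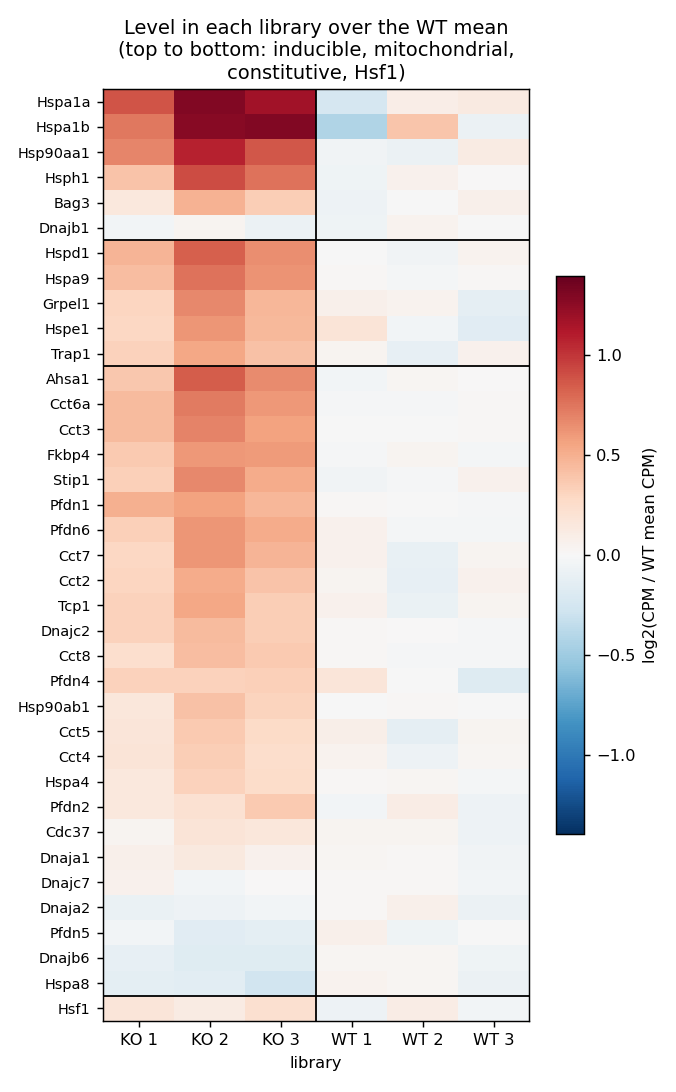
Level of each tested member in each library as log2 of its CPM over the mean CPM of the 3 WT libraries, with KO libraries left of the line and WT libraries right of it, and rows grouped by class. For most rows KO 2 is the darkest KO column and KO 1 the palest, while the rows of Hspa8 and Dnajb6 are pale blue in all 3 KO libraries.

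The inducible class moved the most. Of its 7 genes 6 were tested, 5 rose, and the median fold change was 0.80, against 0.49 for the mitochondrial and 0.32 for the constitutive class. The near-identical Hspa1a and Hspa1b both count among the 5 and in the median, although their values may not be separate measurements. The differences between classes were not tested. Hspa1a (ENSMUSG00000091971, chromosome 17, 34969190 to 34972156, minus strand) and Hspa1b (ENSMUSG00000090877, chromosome 17, 34956436 to 34959238, minus strand) encode the stress-inducible HSP70. Their coding sequences were identical at 99.6% of 1923 aligned bases, so how the authors' counting divided reads between them is uncertain. Hspa1a was at 8.39, 11.2 and 10.3 CPM in KO 1, KO 2 and KO 3, against 3.86, 4.87 and 4.96 CPM in WT 1, WT 2 and WT 3. Every KO library lay above every WT library, and the fold change was 1.13 (SE 0.16, edgeR adjusted p = 0.00558). Hspa1b was at 10.5, 15.2 and 15.5 CPM in KO 1, KO 2 and KO 3, against 4.71, 8.23 and 5.93 CPM in WT 1, WT 2 and WT 3. Here too the genotypes did not overlap, although KO 1 lay near WT 2, and the fold change was 1.13 (SE 0.24, edgeR adjusted p = 0.0139). Without KO 3 the call of Hspa1b was lost. Summed, which removes the uncertain split, the pair held 538, 769 and 776 counts in KO 1, KO 2 and KO 3, against 320, 347 and 316 in WT 1, WT 2 and WT 3. The sum rose by 1.13 (SE 0.19, edgeR adjusted p = 0.00804). Reads matching both genes may also have been left out by the counting method, which is not given, and summing does not restore them.

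Hsp90aa1, the inducible HSP90 (ENSMUSG00000021270, chromosome 12, 110690605 to 110702728, minus strand), rose by 0.89 (SE 0.11, edgeR adjusted p = 0.00499). Its libraries were at 341, 450.00 and 390.4 CPM in KO 1, KO 2 and KO 3, against 206, 201 and 231 CPM in WT 1, WT 2 and WT 3. Its lowest KO library was above all WT libraries by more than the whole WT range. Hsph1, an HSP110 exchange factor (ENSMUSG00000029657, chromosome 5, 149614287 to 149636376, minus strand), was at 46.2, 65.8 and 59.1 CPM in KO 1, KO 2 and KO 3, against 33.5, 36.4 and 35.0 CPM in WT 1, WT 2 and WT 3. The WT libraries lay close together and the KO libraries spread above them, with a rise of 0.71 (SE 0.13, edgeR adjusted p = 0.00856). Bag3, a BAG-domain exchange factor that directs clients to autophagy, was at 49.99, 63.5 and 57.5 CPM in KO 1, KO 2 and KO 3, against 43.1, 44.9 and 47.4 CPM in WT 1, WT 2 and WT 3. Its genotypes were separated by a small gap between KO 1 and WT 3, and it rose by 0.34 (SE 0.09, edgeR adjusted p = 0.0279), a call lost without KO 2, KO 3, WT 1 or WT 2. The inducible count of 5 fell to 3 without KO 3, where the calls of Hspa1b and Bag3 were lost.

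Dnajb1, the inducible HSP40 that works with HSP70, did not move with its class. It was at 38.5, 40.6 and 37.4 CPM in KO 1, KO 2 and KO 3, against 38.0, 41.0 and 39.4 CPM in WT 1, WT 2 and WT 3. The genotypes overlapped, the fold change was -0.02 (edgeR adjusted p = 0.781), and its 95% interval of -0.16 to 0.12 excluded a change as large as that of the other tested inducible members. Its sign turned positive, to 0.04, under upper quartile scaling. Hspb1, a small heat shock protein, had 2, 5 and 0 counts in KO 1, KO 2 and KO 3, against 0 in each WT library. A count of 0 allows up to 3 counts per library, 0.0808 to 0.110 CPM in WT, so no fold is given. Hsf1 itself was at 26.6, 25.6 and 27.5 CPM in KO 1, KO 2 and KO 3, against 22.5, 25.3 and 23.0 CPM in WT 1, WT 2 and WT 3. Its fold change of 0.17 did not pass (edgeR adjusted p = 0.09, 95% interval 0.01 to 0.34), although it passed under upper quartile scaling. These are levels of Hsf1 RNA, and the activity of the protein was not measured.

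The constitutive HSP70 and HSP90, the most abundant members per kilobase, had small fold changes. Per kilobase of exons, Hsp90ab1 had the highest level of the members, 414 ± 35.7 CPM in KO and 337 ± 2.69 CPM in WT (SD, n = 3 each), followed by Hspa8 at 192 ± 9.59 CPM in KO and 218 ± 10.1 CPM in WT. Hspa8, the constitutive HSP70 also called HSC70 (ENSMUSG00000015656, chromosome 9, 40800984 to 40810087, plus strand), was at 853, 842 and 777 CPM in KO 1, KO 2 and KO 3, against 968, 954 and 887 CPM in WT 1, WT 2 and WT 3. All KO libraries were below all WT libraries, but its fold change of -0.18 did not pass (SE 0.07, edgeR adjusted p = 0.0745). DESeq2 called it lower in KO, and it was the one member that any alternative called lower. Hsp90ab1, the constitutive HSP90 (ENSMUSG00000023944, chromosome 17, 45567775 to 45573271, minus strand), was at 1128, 1341 and 1253 CPM in KO 1, KO 2 and KO 3, against 1009, 1020.3 and 1005 CPM in WT 1, WT 2 and WT 3. The WT libraries were nearly level and each KO library lay above them, for a rise of 0.29 (SE 0.08, edgeR adjusted p = 0.0252). Hspa4, an HSP110 exchange factor, was at 261, 296 and 281 CPM in KO 1, KO 2 and KO 3, against 238, 239.9 and 231 CPM in WT 1, WT 2 and WT 3. It rose by 0.24 (edgeR adjusted p = 0.0265), without overlap. The calls of Hsp90ab1 and Hspa4 were lost when any 1 library other than KO 1 was left out, and that of Hspa4 also on the authors' normalized values.

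The inducible and constitutive forms of the same chaperone stood in another proportion in the 2 genotypes, measured per kilobase within each library. The ratio of Hsp90aa1 to Hsp90ab1 was 0.231, 0.256 and 0.238 in KO 1, KO 2 and KO 3, against 0.156, 0.151 and 0.175 in WT 1, WT 2 and WT 3. The ratio of Hspa1a plus Hspa1b to Hspa8 was 0.0331, 0.0470 and 0.0498 in KO 1, KO 2 and KO 3, against 0.0133, 0.0206 and 0.0184 in WT 1, WT 2 and WT 3. Neither ratio overlapped between genotypes, and in every library the constitutive form had the larger share. For HSP70 that share would be overstated if reads matching both Hspa1a and Hspa1b were left out of the counts. The ratio of the mitochondrial pair, Hspd1 to Hspe1, did overlap, at 1.97, 2.02 and 1.99 in KO 1, KO 2 and KO 3, against 1.52, 1.72 and 2.02 in WT 1, WT 2 and WT 3. No test was run on these ratios.

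**Figure D3:**
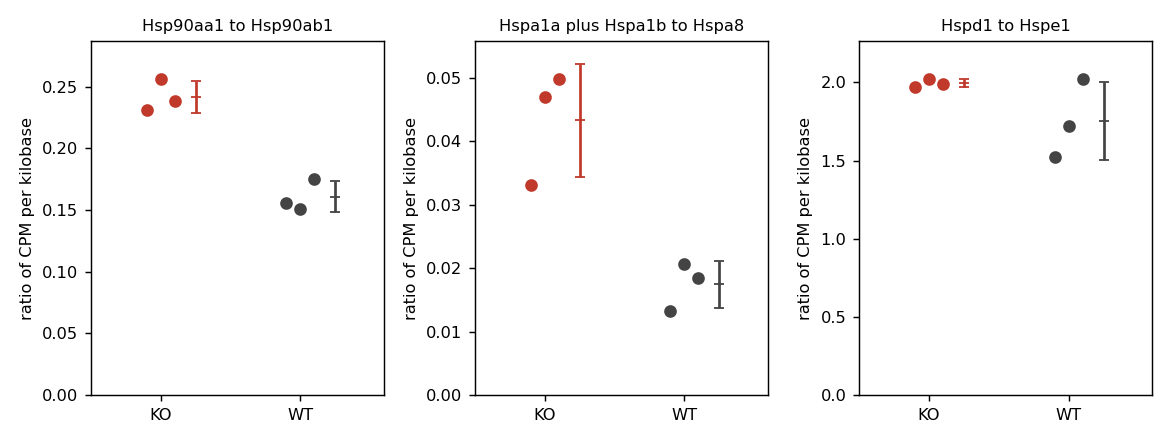
Ratio of CPM per kilobase of exons within each library for 3 chaperone pairs, KO left and WT right, with points for libraries and bars for mean and SD. The Hsp90aa1 to Hsp90ab1 ratio was 0.242 ± 0.0129 in KO and 0.161 ± 0.0129 in WT, and the third panel, Hspd1 to Hspe1, is the one in which the genotypes overlap.

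Of the 4 HSP90 cochaperones 3 rose, and their median fold change was 0.52. Ahsa1, which speeds up the ATPase of HSP90 (ENSMUSG00000021037, chromosome 12, 87266479 to 87273998, plus strand), was at 184, 256 and 225 CPM in KO 1, KO 2 and KO 3, against 138, 145 and 143 CPM in WT 1, WT 2 and WT 3. It rose by 0.64 (SE 0.11, edgeR adjusted p = 0.00838), the largest fold change of the constitutive class, and no KO library was near the WT range. Fkbp4, the immunophilin of steroid receptor complexes, was at 90.6, 107 and 106 CPM in KO 1, KO 2 and KO 3, against 69.6, 72.2 and 69.2 CPM in WT 1, WT 2 and WT 3. Stip1, the adaptor that links HSP70 to HSP90, was at 99.8, 126 and 113 CPM in KO 1, KO 2 and KO 3, against 76.3, 77.8 and 82.5 CPM in WT 1, WT 2 and WT 3. Both rose by 0.52 without overlap (edgeR adjusted p = 0.00572 for Fkbp4 and 0.00767 for Stip1). Cdc37, which brings kinases to HSP90, had a mean of 196 ± 10.3 CPM in KO and 179.8 ± 7.32 CPM in WT (SD, n = 3 each). Its fold change of 0.13 did not pass (edgeR adjusted p = 0.155, 95% interval -0.02 to 0.27).

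The HSP40 genes had a median of -0.01, and 1 of 6 rose (16.7%), a share near the 18.5% of all genes called higher. It was Dnajc2, a ribosome-bound J protein that acts on nascent chains, at 47.3, 51.4 and 47.8 CPM in KO 1, KO 2 and KO 3, against 38.1, 37.7 and 37.2 CPM in WT 1, WT 2 and WT 3. It rose by 0.37 (SE 0.06, edgeR adjusted p = 0.00609), with all KO libraries above the narrow WT range. Dnaja1 and Dnaja2, the main type I cytosolic HSP40 proteins, averaged 120.1 ± 3.64 and 119 ± 2.74 CPM in KO, against 113 ± 3.20 and 125 ± 6.52 CPM in WT (SD, n = 3 each). Neither passed, with fold changes of 0.09 (95% interval -0.04 to 0.22) and -0.06 (-0.20 to 0.07). Dnajb6, which holds back protein aggregates, was at 101, 97.5 and 97.7 CPM in KO 1, KO 2 and KO 3, against 112, 112 and 105 CPM in WT 1, WT 2 and WT 3. All KO libraries were lower, but the fold change of -0.15 did not pass (edgeR adjusted p = 0.065). Dnajc7, a cochaperone of both HSP70 and HSP90, averaged 145 ± 5.05 CPM in KO and 144 ± 3.64 CPM in WT, a fold change of 0.01 (95% interval -0.11 to 0.14).

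All 8 subunits of CCT, the ring that folds actin and tubulin, rose in KO macrophages, by 0.25 to 0.60 with a median of 0.41. Their summed level was 1319, 1546 and 1419.5 CPM in KO 1, KO 2 and KO 3, against 1112, 1027 and 1105 CPM in WT 1, WT 2 and WT 3. The largest rises were those of Cct6a and Cct3. Cct6a (ENSMUSG00000029447, chromosome 5, 129786998 to 129846371, plus strand) was at 140.2, 170.00 and 157 CPM in KO 1, KO 2 and KO 3, against 102, 102 and 104 CPM in WT 1, WT 2 and WT 3. Cct3 (ENSMUSG00000001416, chromosome 3, 88297116 to 88321767, plus strand) was at 131, 156 and 143 CPM in KO 1, KO 2 and KO 3, against 95.8, 96.0 and 97.7 CPM in WT 1, WT 2 and WT 3. In both, the WT libraries lay close together and each KO library stood well above them. The fold changes were 0.60 for Cct6a and 0.57 for Cct3 (SE 0.08 and 0.07, edgeR adjusted p = 0.00499 for each).

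The other CCT subunits rose less. Cct7 averaged 179 ± 20.8 CPM in KO and 129.7 ± 7.42 CPM in WT (SD, n = 3 each; fold change 0.46, edgeR adjusted p = 0.0108). For Cct2 the means were 215 ± 15.8 CPM in KO and 162 ± 10.4 CPM in WT (0.41, edgeR adjusted p = 0.0092), and for Tcp1, the subunit also called CCT1, 191 ± 15.9 CPM in KO and 144 ± 8.21 CPM in WT (0.40, edgeR adjusted p = 0.00993). Cct8 stood at 165 ± 11.3 CPM in KO and 130.03 ± 2.04 CPM in WT (0.35, edgeR adjusted p = 0.00898). The smallest rises, Cct5 at 0.27 (edgeR adjusted p = 0.0345) and Cct4 at 0.25 (edgeR adjusted p = 0.0253), lost their calls when any 1 library other than KO 1 was left out, which left 6 subunits called in each case; on the authors' normalized values 7 rose, without Cct5. In all 8 genes KO 2 was the highest library and KO 1 the lowest of KO, without overlap with WT. Cct6a shares 452 exon bases with Psph on the opposite strand, which had 276, 326 and 307 counts in KO 1, KO 2 and KO 3, against 218, 170 and 172 in WT 1, WT 2 and WT 3. The part of such overlaps in the counts was not tested, since the strand setting is not given in the sources used here.

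Per kilobase of exons, the subunits of the CCT ring, which holds each subunit in equal number, were not at equal RNA levels. In KO the order of the means was Cct2 at 84.0 ± 6.17 CPM, Cct5 at 75.4 ± 4.93 CPM, Cct8 at 53.6 ± 3.66 CPM, Cct6a at 43.0 ± 4.13 CPM, Cct4 at 40.7 ± 2.51 CPM, Tcp1 at 37.9 ± 3.16 CPM, Cct7 at 26.4 ± 3.06 CPM and Cct3 at 22.5 ± 1.95 CPM (SD, n = 3 each). In WT it was Cct2 at 63.2 ± 4.06 CPM, Cct5 at 62.7 ± 4.64 CPM, Cct8 at 42.1 ± 0.66 CPM, Cct4 at 34.2 ± 1.52 CPM, Tcp1 at 28.7 ± 1.63 CPM, Cct6a at 28.3 ± 0.372 CPM, Cct7 at 19.1 ± 1.10 CPM and Cct3 at 15.1 ± 0.162 CPM. Neighbours whose libraries overlapped were Cct2 with Cct5, Cct6a with Cct4, Cct4 with Tcp1 and Cct7 with Cct3 in KO, and Cct2 with Cct5 and Tcp1 with Cct6a in WT. The highest subunit exceeded the lowest by 3.74-fold in KO and 4.20-fold in WT, or by 2.62-fold in KO and 3.23-fold in WT with the length of the longest transcript, where Cct5 and not Cct2 was the highest in both genotypes.

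**Figure D4:**
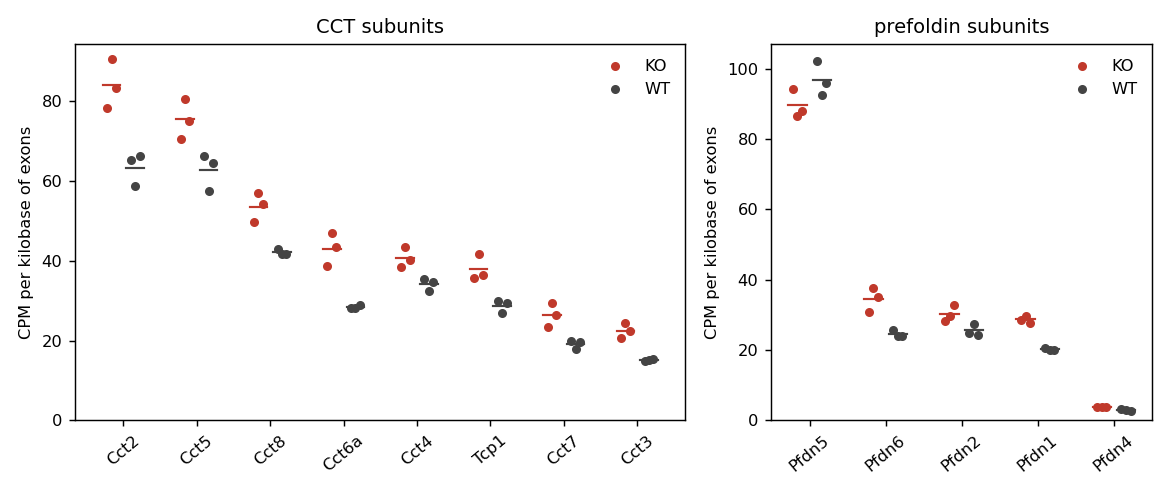
CPM per kilobase of annotated exons of the CCT subunits (left) and the listed prefoldin subunits (right). KO points lie left of WT points for each gene, with 1 point per library and lines at the means. All 8 CCT genes have KO points above their WT points, while for Pfdn5, the highest prefoldin subunit, the KO mean of 89.6 CPM lies below the WT mean of 96.8 CPM.

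Prefoldin, the complex that delivers unfolded actin and tubulin to CCT, was less uniform, with 3 of its 5 listed subunits called and a median of 0.32. A further subunit, Vbp1, was counted in another list and did not pass (fold change 0.06, edgeR adjusted p = 0.576). Pfdn1 was at 31.6, 33.1 and 30.8 CPM in KO 1, KO 2 and KO 3, against 22.7, 22.3 and 22.1 CPM in WT 1, WT 2 and WT 3. It rose by 0.51 (SE 0.06, edgeR adjusted p = 0.00461), the smallest p of all members, and here KO 3 and not KO 1 was nearest to WT. Pfdn6 was at 36.9, 45.0 and 42.0 CPM in KO 1, KO 2 and KO 3, against 30.6, 28.7 and 28.8 CPM in WT 1, WT 2 and WT 3, a rise of 0.49 (edgeR adjusted p = 0.00708). Pfdn2 rose by 0.24 (edgeR adjusted p = 0.0448), at 54.7, 57.5 and 63.6 CPM in KO 1, KO 2 and KO 3, against 48.2, 53.2 and 47.1 CPM in WT 1, WT 2 and WT 3. The gap between KO 1 and WT 2 was narrow, and its call was lost when any 1 library other than KO 1 was left out and on the authors' normalized values. Pfdn4 had a fold change of 0.32 that did not pass (edgeR adjusted p = 0.0596, 95% interval 0.06 to 0.59) and was the lowest subunit, at 9.43 ± 0.0494 CPM in KO and 7.52 ± 0.909 CPM in WT. Pfdn5, the most abundant subunit, was at 131, 121 and 123 CPM in KO 1, KO 2 and KO 3, against 142, 129 and 134 CPM in WT 1, WT 2 and WT 3. Its genotypes overlapped and the fold change of -0.11 did not pass (95% interval -0.26 to 0.04). Per kilobase, Pfdn5 exceeded Pfdn4 by 24.0-fold in KO and 32.7-fold in WT, values that were 13.0 in KO and 17.7 in WT with the length of the longest transcript.

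All 5 mitochondrial members rose, by 0.43 to 0.66. Hspd1 (ENSMUSG00000025980, chromosome 1, 55077835 to 55088243, minus strand) was at 190.1, 245 and 215 CPM in KO 1, KO 2 and KO 3, against 136, 132 and 142 CPM in WT 1, WT 2 and WT 3. Its genotypes were far apart, with a rise of 0.66 (SE 0.09, edgeR adjusted p = 0.00567). Hspa9, the mitochondrial HSP70 called mortalin (ENSMUSG00000024359), was at 273, 343 and 313 CPM in KO 1, KO 2 and KO 3, against 205, 198 and 204 CPM in WT 1, WT 2 and WT 3, a rise of 0.61 (SE 0.09, edgeR adjusted p = 0.00566). Hspe1, the partner of Hspd1 (ENSMUSG00000073676, chromosome 1, 55088132 to 55091307, plus strand), was at 53.9, 67.5 and 60.2 CPM in KO 1, KO 2 and KO 3, against 49.9, 42.8 and 39.4 CPM in WT 1, WT 2 and WT 3. WT 1 reached close to KO 1, and the rise of 0.46 (SE 0.11, edgeR adjusted p = 0.0206) lost its call without KO 2, KO 3, WT 2 or WT 3.

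Grpel1, the nucleotide exchange factor of Hspa9, was at 46.1, 59.6 and 51.6 CPM in KO 1, KO 2 and KO 3, against 39.1, 38.6 and 34.3 CPM in WT 1, WT 2 and WT 3, a rise of 0.49 (edgeR adjusted p = 0.0123). Trap1, the mitochondrial HSP90, was at 66.7, 77.3 and 70.7 CPM in KO 1, KO 2 and KO 3, against 54.8, 49.1 and 55.6 CPM in WT 1, WT 2 and WT 3, a rise of 0.43 (edgeR adjusted p = 0.00821). Neither overlapped between genotypes, and as in the other mitochondrial members KO 1 was nearest to WT and KO 2 farthest. The exons of Hspd1 and Hspe1 overlap by 112 bases on opposite strands, and Hspd1-ps3, a pseudogene, had 159, 221 and 219 counts in KO 1, KO 2 and KO 3, against 171, 117 and 128 in WT 1, WT 2 and WT 3. Grpel1 shares 411 exon bases with Tada2b on the opposite strand, whose counts were 449, 415 and 481 in KO 1, KO 2 and KO 3, against 738, 522 and 500 in WT 1, WT 2 and WT 3. The part of these shared sequences in the values was not tested.

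The further genes of the same machinery were called less widely, although the difference to the members was not tested. Of 29 other cytosolic HSP70, HSP40, BAG and small HSP genes tested, 8 rose (27.6%) and 5 fell (17.2%). Over all genes tested, 18.5% rose and 16.8% fell. Fold changes of this list ran from -0.53 to 0.88, with a median of 0.04. Dnajb4, a J protein close to Dnajb1, rose by 0.88, with 53.1 ± 10.4 CPM in KO and 28.9 ± 3.74 CPM in WT (SD, n = 3 each). Dnajc9, a J protein that also handles histones, rose by 0.72, with 32.4 ± 4.24 CPM in KO and 19.7 ± 1.91 CPM in WT. Bag2 rose by 0.70 at a low level and the ribosome-associated Hypk by 0.56. Of 17 other HSP90 cochaperones 6 rose, 0 fell and the median was 0.11, led by Ruvbl1 (0.49) and Ruvbl2 (0.42), ATPases that assemble large complexes with HSP90, then Ptges3, the cochaperone p23 (0.34), and Fkbp5 (0.24). Of 16 partners of CCT and prefoldin and tubulin cofactors, 4 rose (Uxt 0.35, Tbcb 0.34, Tbca 0.29 and 1 more), 1 fell (Tbcel, -0.32) and the median was 0.04. That list also holds Vbp1, a further prefoldin subunit, which did not pass. Of 18 other mitochondrial chaperones and proteases 6 rose and 1 fell, with a median of 0.19, including the proteases Afg3l2 (0.58) and Clpp (0.43), the disaggregase Clpb (0.50) and the transcription factor Atf5 (0.45). Of 4 heat shock factors and binding proteins tested, Hsbp1 alone rose (0.17).

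These list counts depended on single libraries. The 8 rises of the first list were 4 without KO 2, KO 3 or WT 1 and 5 without WT 2 or WT 3, and its 5 falls were 3 without KO 2, 2 without KO 3, WT 2 or WT 3 and 1 without WT 1. The 6 rises among HSP90 cochaperones were 3 without KO 2, KO 3, WT 2 or WT 3, 2 without WT 1, and 3 by DESeq2. The 4 rises among partners and cofactors were 2 without KO 2 or WT 3, 1 without KO 3, WT 1 or WT 2, and 2 by DESeq2, and the fall of Tbcel lost its call without WT 1. The 6 mitochondrial rises were 4 without KO 2, KO 3, WT 2 or WT 3 and 3 without WT 1, and the 1 mitochondrial fall was lost without KO 2, KO 3, WT 1, WT 2 or WT 3. Hsbp1 lost its call without KO 2, KO 3, WT 1 or WT 2.

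The proteins that CCT is best known to fold also had higher RNA levels in KO. Of 12 actin and tubulin genes tested, 11 rose (91.7%), 0 fell and the median was 0.90, where 18.5% of all genes rose and 16.8% fell. The summed level of this list was 8743, 11084 and 9372 CPM in KO 1, KO 2 and KO 3, against 6472, 6408 and 7149 CPM in WT 1, WT 2 and WT 3. The cell cycle sum given below ranks the libraries in the same order, and a link of these genes to CCT or to the cell cycle was not tested. Tubb6 was at 129 ± 36.1 CPM in KO and 49.7 ± 6.60 CPM in WT (SD, n = 3 each; 1.37), Tuba1b at 653 ± 127 CPM in KO and 322 ± 56.5 CPM in WT (1.02), and Tubb5 at 580.2 ± 111 CPM in KO and 296 ± 60.5 CPM in WT (0.97). Tubb2b rose by 1.08 at a low level. Without WT 1, 7 of these genes rose. Tuba4a, at 0.32 (edgeR adjusted p = 0.0819), was the gene that did not pass.

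Among chaperones of the endoplasmic reticulum and genes of its unfolded protein response, more genes rose than fell. Of 18 tested, 11 rose (61.1%) and 1 fell (5.56%), with a median of 0.32, where 18.5% of all genes rose and 16.8% fell. Calr, a lectin chaperone, was at 1278 ± 144 CPM in KO and 855 ± 7.66 CPM in WT (0.58), and the rises of Creld2 (0.73) and of the transcription factor Atf4 (0.62) were larger. Herpud1, which serves degradation of misfolded proteins from that compartment, fell by 1.04, with 34.1 ± 8.31 CPM in KO and 69.99 ± 7.10 CPM in WT (SD, n = 3 each). Without WT 1 the number of rises was 5.

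Several other gene groups moved over the same libraries, and their part in the chaperone values was not tested. All 12 ribosome biogenesis genes tested rose, with a median of 0.58, among them Nop58 (0.92), Dkc1 (0.84), Nop56 (0.82) and Rrp9 (0.69). Their summed level was 1276, 1503 and 1386 CPM in KO 1, KO 2 and KO 3, against 1049, 947 and 1043 CPM in WT 1, WT 2 and WT 3. The ribosome biogenesis count was 10 without KO 2 or WT 3, 9 without KO 3 or WT 1 and 11 without WT 2. Of 16 cell cycle genes 10 rose, with a median of 1.01, led by Rrm2 (1.38), Mcm5 and Tyms (1.33 each) and Birc5 (1.18), and their summed level was 1290.1, 2003 and 1479 CPM in KO 1, KO 2 and KO 3, against 739, 595 and 1022 CPM in WT 1, WT 2 and WT 3. Within KO, the order KO 1, KO 3, KO 2 was the same as for most chaperones. Within WT, the cell cycle sum was highest in WT 3 and lowest in WT 2, and the chaperone sums differed in their order. The sum of all matched chaperones was lowest in WT 3, at 5421, 5324 and 5303 CPM in WT 1, WT 2 and WT 3. In the same order of libraries, the constitutive sum was also lowest in WT 3 (4583, 4501 and 4441 CPM). The inducible sum was highest in WT 3 (329.6, 337 and 363 CPM). The mitochondrial sum (485, 460.1 and 476 CPM) and the CCT sum (1112, 1027 and 1105 CPM) were lowest in WT 2. The cell cycle count was 1 without WT 1, 5 without KO 2 or KO 3, 6 without WT 2 and 16 without WT 3. Immediate early genes, which can rise while cells are harvested, were mixed, with 3 of 12 higher (Egr2 0.92, Dusp1 0.87 and Atf3 0.59), 1 lower (Ier3, -1.06, lost without KO 2, KO 3, WT 1 or WT 2) and a median of -0.07; without WT 3, 3 were lower. Ier3 was at 28.9 ± 7.65 CPM in KO and 60.4 ± 17.0 CPM in WT (SD, n = 3 each).

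Markers of other marrow cells were low next to the macrophage markers. Of 6 osteoclast markers 4 were tested and 3 rose (Ctsk 2.49, Ocstamp 1.77 and Dcstamp 1.36), or 2 without KO 2, WT 1 or WT 2 and 4 by DESeq2. Ctsk was highest in KO 2, at 5.93, 26.6 and 10.9 CPM in KO 1, KO 2 and KO 3 (SE 0.56). The summed level of the osteoclast markers was 85.3 to 145 CPM in KO and 38.3 to 56.8 CPM in WT, with Calcr at 0 in every library. Of 9 erythroid and megakaryocyte markers 2 were tested and both rose (Itga2b 2.69 and Ppbp 1.01, with 1 rising without KO 2 or WT 1), with summed levels of 9.37 to 15.0 CPM in KO and 2.86 to 4.42 CPM in WT. Neutrophil markers summed to 39.9 to 115 CPM in KO and 33.5 to 86.3 CPM in WT, with 0 of 7 called. Lymphocyte markers summed to 3.69 to 6.92 CPM in KO and 4.94 to 5.86 CPM in WT with 0 of 1 called, dendritic cell markers to 1.61 to 2.66 CPM in KO and 1.97 to 2.30 CPM in WT with 0 of 4 called, and mast cell and basophil markers to at most 0.498 CPM in KO and 0.107 CPM in WT with Mcpt4 at 0. Their part in the chaperone values was not tested.

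**Figure D5:**
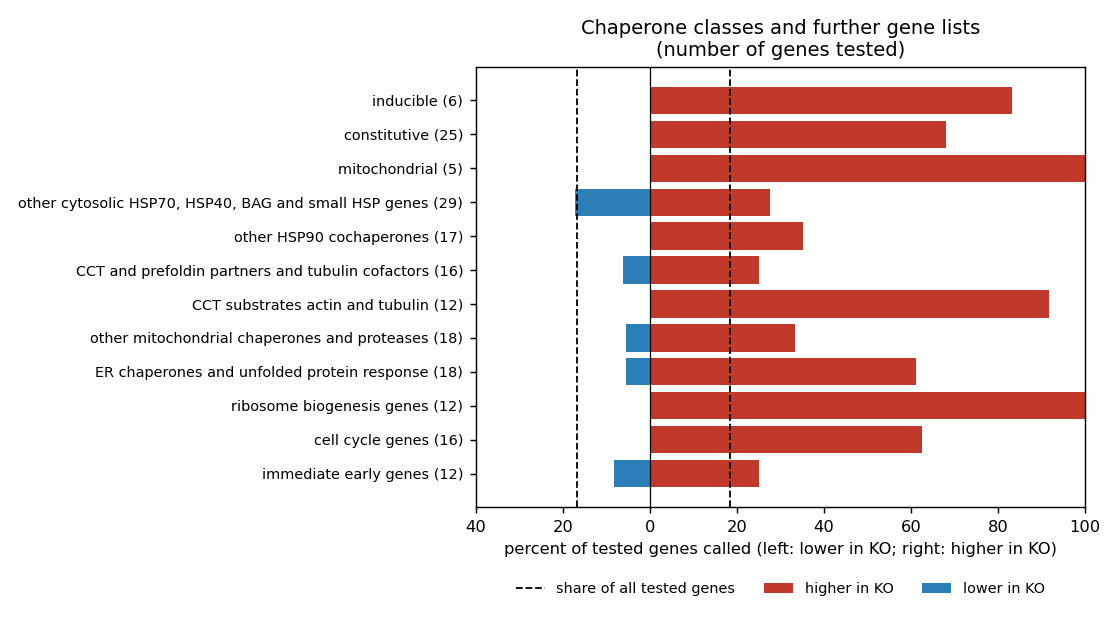
Percent of the tested genes of each class or list called as higher in KO (right, red) or lower in KO (left, blue) by edgeR, with the number tested in brackets and dashed lines at the shares of all genes, 18.5% higher and 16.8% lower. The 3 chaperone classes, actin and tubulin, ribosome biogenesis, cell cycle and ER genes all reach far past the right dashed line, and the further cytosolic chaperones have falls at 17.2%, near the left one.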

How the data were processed

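Per the labels' protocols, total RNA of bone marrow-derived macrophages was sequenced from directional libraries. Groups follow the genotype label, 3 KO and 3 WT, and library numbers follow the order of the samples, so they pair nothing. DRAGEN, DESeq2 and the build mm10 are named in the submitters' processing notes without versions or roles. Which annotation, strand setting and counting method were used is not given in the sources used here. The authors deposited raw counts per Ensembl gene, and also a normalized signal in which the counts are divided by factors that differ between genes and libraries; the second served as an alternative. Per the file headers both tables hold the same 6 samples.

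From the deposited counts, edgeR 4.0.16 (R 4.3.3) compared KO with WT: filterByExpr (minimum count 10), TMM scaling, robust quasi-likelihood F test, no covariates, two-sided, Benjamini-Hochberg adjustment over 12862 genes, threshold 0.05. The biological coefficient of variation was 0.121. SE is the absolute log2 fold change divided by the square root of F, and intervals are 95%. Levels per kilobase use the union of annotated exons. Coordinates and symbols come from the GENCODE M21 annotation of GRCm38, also called mm10. Replicate libraries differed beyond sampling noise, the chi-square divided by its degrees of freedom being 11.7 to 48.83 per pair. The test was tried on simulated data with known changes. Alternatives were DESeq2 1.42.0, limma-voom (limma 3.58.1), limma fitted to the deposited normalized signal as log2 of the value plus 1, other filters and scalings, longest-transcript lengths, and leaving out each library. The summed Hspa1a and Hspa1b test and the list counts under alternatives were added after the data were seen.

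The members and lists were chosen with earlier results of these data known. Every member is reported, and from each further list up to 4 called genes with the largest absolute fold change are named. Cdh11, Tuba4a, Vbp1, overlapping genes and pseudogenes are named outside that rule, after their values were seen. Some marker genes of the lists are not reported here.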

Additional observations from a re-analysis of the deposited data

How the results depend on the processing

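Over 14 alternatives, 0 of the 27 called members turned direction, 24 kept their call in the 8 that left out no library, and 19 kept it in all 14. Leaving out each library gave 19 to 27 members that rose, 3 to 5 inducible, 12 to 17 constitutive and 4 to 5 mitochondrial members, and 6 to 8 CCT subunits; over all genes it gave 1037 to 2791 rises and 942 to 2665 falls. Fits with 1 library fewer also have less power. DESeq2 called 1 member, the constitutive Hspa8, as lower. On the authors' normalized signal 24 members rose, with the calls of Hspa4, Cct5 and Pfdn2 lost. Under upper quartile scaling 29 rose, with Hsf1 and Pfdn4 added; this scaling moved the median of all genes by 0.06 and gave 2933 rises and 1621 falls over all genes, 64.4% of calls as higher against 52.4%. Signs turned for uncalled members near 0: Dnaja2 to 0.01 and Dnajc7 to -0.07 on the normalized signal, Dnajb1 to 0.04 under upper quartile scaling (from -0.06 without KO 2 to 0.00 without WT 2), and Dnajc7 to -0.02 without KO 1 and -0.01 without WT 3. With longest-transcript lengths, the mean ratio of Hspa1a plus Hspa1b to Hspa8 was 0.0318 in KO and 0.0128 in WT, that of Hspd1 to Hspe1 1.42 in KO and 1.25 in WT, the span of CCT subunits 2.62 in KO and 3.23 in WT, and that of prefoldin 13.0 in KO and 17.7 in WT; the order of genotypes was the same in each. No paired analysis was possible because the labels give no replicate numbers. Hspb1 and Cdh11 had at most 11 counts in any library and were not tested.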
